A study of Mus musculus with 31 samples.

Results

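The collagen genes of mouse mammary tumours were described from a table of raw RNA-seq counts. Every gene whose symbol has the form Col, a number, a and a number was taken, which gave 44 of the 39017 genes in the table. By the kind of structure their proteins form, 11 were fibrillar collagens, 8 were basement membrane collagens and 25 belonged to other classes. Of these, 36 passed the filter on low counts in the 4T1 tumours and 39 passed it in the MT tumours. Col4a3, Col4a4, Col19a1, Col22a1 and Col26a1 passed in no fit, each with a mean under 0.2 CPM (counts relative to library size), and Col2a1, Col10a1 and Col25a1 also failed it in the 4T1 fit.

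The 31 libraries came from orthotopic tumours in immunocompetent mice labelled WT, in 2 models named by the library titles, 4T1 and MT. Each model had 4 arms: a control arm given saline and PBS, a phenformin arm given saline and phenformin, a poly I:C arm given poly I:C and PBS, and a combination arm given both agents. Poly I:C mimics the RNA of viruses and is sensed by innate immune receptors, whereas phenformin, a biguanide drug, blocks complex I of the mitochondrial chain. Each group held 4 libraries, except 4T1 phenformin, which held 3, numbered 1, 2 and 4. The tags for strain and cell line go against the titles: libraries titled 4T1 are tagged FVB and MT4788, and those titled MT are tagged BALBc and 4T1-537, whereas the series design places MT in FVB and 4T1 in BALBc. Groups follow the titles here. The labels do not say that replicates are separate animals, so the p-values rest on how much these libraries vary, which may be technical variation.

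Collagens are trimers of chains wound into a triple helix. Fibrillar collagens such as types I, III and V assemble into the cross-linked fibrils that give a tumour stroma its stiffness, and fibroblasts are their main source. Type IV collagen forms the sheet-like network of basement membranes beneath epithelia and around vessels, while the other classes coat fibrils, form beaded filaments, anchor epithelia or span the cell membrane.

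Library totals ran from 12160110 to 19849915 counts. Luminal keratin and junction genes, which mark mammary epithelium, were present in both models, with group means of their summed level from 1306 to 2406 CPM. Libraries also differed in content within arms. In the MT model, 5 libraries (control replicates 1, 2 and 3 and phenformin replicates 1 and 2) had 168 to 211 CPM of Sox10, a neural crest and glial transcription factor, and 20.7 to 36.2 CPM of Krt5, a basal keratin. Phenformin replicate 3 had 34.4 CPM of Sox10 and 1653 CPM of Krt5. The other 10 MT libraries, which include every poly I:C and combination library, had at most 3.19 CPM of Sox10 and at least 344 CPM of Krt5. In the 4T1 model, Acta1, the actin of skeletal muscle, was above 10 CPM in 5 libraries: poly I:C replicates 2 and 3, combination replicates 1 and 4, and phenformin replicate 4. Igkc, an immunoglobulin light chain, reached 9108 CPM in MT combination replicate 1.

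Levels are given in CPM scaled by TMM factors, as the mean ± SD over the libraries of a group. Summed over all 44 genes, collagen made up 7913 ± 1588 CPM in 4T1 control and 3512 ± 638 CPM in MT control tumours. The highest sum was 14012 ± 4323 CPM in 4T1 poly I:C. The lowest single library was MT combination replicate 1 at 1238 CPM, the library with the highest Igkc. In bulk tumours, fewer cells of a type and less RNA per cell cannot be told apart. Fibrillar genes gave 56.8% of collagen CPM in 4T1 control and 35.6% in MT control tumours. Per kilobase of exon, Col1a1, which encodes the major chain of type I collagen, ranked first in each of the 4 4T1 groups, with 191 ± 49.6 CPM per kilobase in control tumours. In MT control tumours the first ranks per kilobase were instead taken by Col9a1 at 78.8 ± 51.0 and Col9a3 at 78.8 ± 25.2, chains of type IX collagen, which decorates the fibrils of cartilage.

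**Figure D1:**
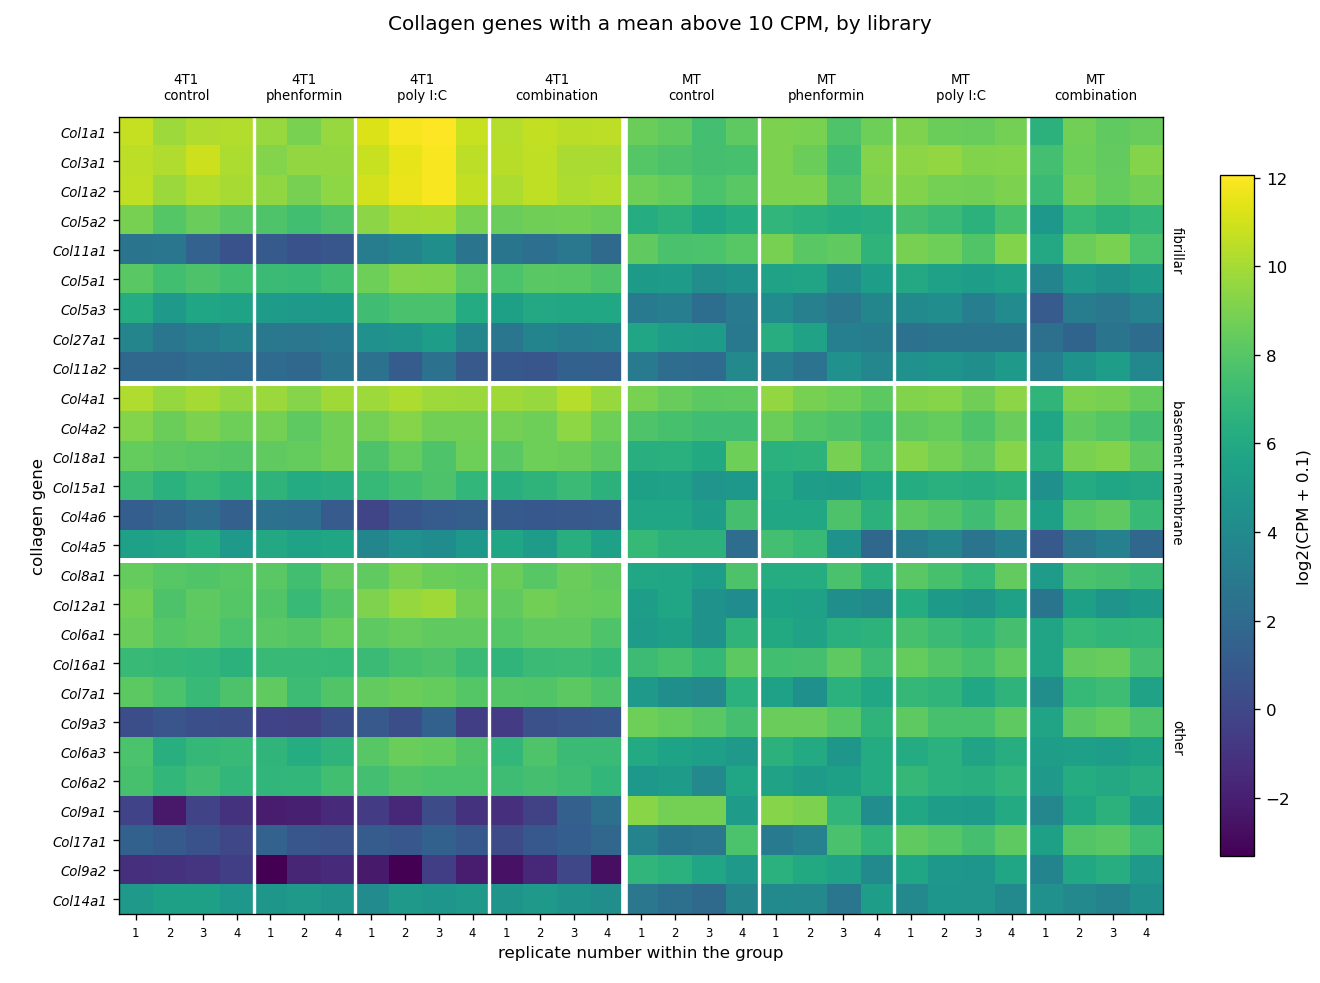
Level of the 27 collagen genes with a mean above 10 CPM in each of the 31 libraries, as log2(CPM + 0.1), with genes in rows by class and libraries in columns by group. The rows of Col1a1, Col1a2, Col3a1, Col5a1, Col5a2 and Col5a3 are brightest in 4T1 poly I:C replicates 2 and 3, and Col11a1, Col9a3, Col9a2 and Col4a6 are dark in every 4T1 library.

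Among the fibrillar members, group means of Col1a2, the second chain of type I collagen, ran from 310 ± 86.0 CPM in MT control to 2652 ± 1037 CPM in 4T1 poly I:C. Col3a1, the chain of type III collagen, ran from 213 ± 31.6 to 2488 ± 1107 CPM over the same pair of groups. Col5a2, a chain of the type V collagen that starts and limits fibril growth, ran from 73.3 ± 15.8 to 815 ± 274 CPM. Col11a2, a minor fibrillar chain, ran from 2.16 ± 0.53 CPM in 4T1 combination to 24.9 ± 5.54 CPM in MT poly I:C, the opposite order of models. Col2a1, the main fibrillar chain of cartilage, was under 0.4 CPM in each 4T1 group mean and ran from 5.53 ± 4.84 to 36.0 ± 26.6 CPM in the MT groups.

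In the basement membrane class, group means of Col4a1 ran from 362 ± 90.8 to 980 ± 237 CPM and those of Col4a2, its partner chain in the common type IV network, from 185 ± 30.8 to 498 ± 145 CPM, with MT control lowest and 4T1 combination highest for both. Col18a1, whose C-terminal fragment is endostatin, ran from 162 ± 168 CPM in MT control to 509 ± 140 CPM in MT poly I:C. Col15a1, its close relative, ran from 35.6 ± 9.74 CPM in MT control to 160 ± 47.4 CPM in 4T1 poly I:C.

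Of the other classes, Col6a1, Col6a2 and Col6a3, the chains of the beaded-filament collagen, were lowest in MT control at 51.8 ± 35.4, 34.0 ± 16.9 and 47.3 ± 15.6 CPM, apart from Col6a3, which was lower still in MT combination at 41.9 ± 4.69 CPM. Their highest group means were in 4T1 poly I:C, at 323 ± 23.8, 207 ± 25.9 and 308 ± 67.0 CPM. Col12a1, a fibril-associated chain, ran from 26.6 ± 15.4 CPM in MT combination to 669 ± 229 CPM in 4T1 poly I:C. Col16a1, also fibril-associated, ran from 116 ± 17.5 CPM in 4T1 control to 272 ± 67.1 CPM in MT poly I:C. Col8a1, a short-chain collagen of vessel walls, ran from 91.1 ± 82.2 CPM in MT control to 387 ± 81.3 CPM in 4T1 poly I:C. Col7a1, the anchoring fibril of stratified epithelium, ran from 38.9 ± 34.5 to 331 ± 53.6 CPM over the same pair. Col14a1 was highest in 4T1 control at 36.1 ± 7.23 CPM and lowest in MT control at 7.09 ± 3.85 CPM. Col10a1, the collagen of hypertrophic cartilage, stayed under 2 CPM in every group mean.

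Poly I:C against control in 4T1 tumours asks what the RNA mimic alone did. Most fibrillar collagens were higher after poly I:C, while no basement membrane collagen passed as higher. Col1a1 was 1675, 885, 1189 and 1270 CPM in the 4 control libraries and 2396, 3648, 4277 and 1730 CPM in the 4 poly I:C libraries. Every poly I:C library lay above every control library, and replicates 2 and 3 were the highest. Its log2 fold change was 1.29 ± 0.27 (SE), with an edgeR quasi-likelihood adjusted p of 0.0159. A log2 change of 1 is a doubling.

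Of the 36 collagen genes tested in that comparison, 13 passed at an adjusted p under 0.05, 12 of them higher and 1 lower, against 6.32% of all 17445 genes (3.26% higher, 3.06% lower). Before adjustment, 20 of 36 had p under 0.05, against 23.9% of all genes. The median log2 fold change was 0.49 over the collagen genes and 0.010 over all genes tested. By class, 7 of 10 fibrillar genes were higher, with a median of 1.27. None of the 6 basement membrane genes was higher and 1 was lower, with a median of 0.049, and of the 20 others 5 were higher, with a median of 0.40. Summed fibrillar CPM was 5526, 3428, 5052 and 4017 in control libraries and 7441, 11450, 13970 and 5682 in poly I:C libraries. The summed basement membrane level was 1873 ± 352 CPM in control and 1920 ± 280 CPM in poly I:C tumours.

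Type V collagen gave the smallest p-values. Col5a3 was 75.0, 30.1, 54.9 and 47.0 CPM in control and 160, 200, 204 and 71.2 CPM in poly I:C libraries, so that poly I:C replicate 4 fell just under control replicate 1. Its log2 fold change was 1.64 ± 0.30 (adjusted p = 0.0101, edgeR). Col5a1 was 277, 170, 216 and 167 CPM in control and 399, 596, 570 and 294 CPM in poly I:C libraries, with no overlap, and rose by 1.19 ± 0.22 (adjusted p = 0.0107, edgeR). Col5a2 was 482, 255, 368 and 284 CPM in control and 660.5, 1011, 1077 and 509 CPM in poly I:C libraries, also with no overlap, and rose by 1.25 ± 0.24 (adjusted p = 0.0118, edgeR). These 3 and Col23a1, a transmembrane collagen, were still called when any 1 of the 8 libraries was left out.

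The RefSeq promoter table (GRCm38.p6) held 35 of the 44 members. The windows of Col5a1 and Col5a3 are shown because these genes were called with the smallest p-values for poly I:C in 4T1 tumours. Each is the 250 bases before the gene's start, 5′ to 3′, at chr2:27886175-27886424, plus strand for Col5a1 and chr9:20815068-20815317, minus strand for Col5a3, and overlaps no annotated exon. Capitals mark 3 motifs on either strand: the TATA box, searched as TATAAA, the CCAAT box, searched as those letters, and the GC box, searched as GGGCGG.
Col5a1: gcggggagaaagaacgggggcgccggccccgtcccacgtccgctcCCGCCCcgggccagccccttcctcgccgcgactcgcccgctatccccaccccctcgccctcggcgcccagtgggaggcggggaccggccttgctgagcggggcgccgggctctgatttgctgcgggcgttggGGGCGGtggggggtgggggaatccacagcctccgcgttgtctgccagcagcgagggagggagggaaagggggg
Col5a3: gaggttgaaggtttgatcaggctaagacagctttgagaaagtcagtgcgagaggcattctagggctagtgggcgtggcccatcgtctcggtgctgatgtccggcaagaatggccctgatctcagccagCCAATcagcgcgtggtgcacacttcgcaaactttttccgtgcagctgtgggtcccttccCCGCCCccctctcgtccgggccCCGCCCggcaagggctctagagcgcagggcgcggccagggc
Both windows hold 2 GC boxes, that of Col5a3 also holds 1 CCAAT box, and neither holds a TATA box. The GC box was found in 21 of the 35 collagen windows and in 32.9% of the 27025 windows of the table. The TATA box was found in 5 of 35 and in 3504 of 27025, and the CCAAT box in 34.3% and 34.5%. No motif overlapped another in the windows printed. These are matches of letters only.

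Col1a2 was 1537, 869, 1270 and 1063 CPM in control and 2054, 3068, 3899 and 1585 CPM in poly I:C libraries, with no overlap, and rose by 1.19 ± 0.26 (adjusted p = 0.0186, edgeR). Col3a1 did not pass, at 1456, 1200, 1935 and 1166 CPM in control and 1730, 2880, 3870 and 1469 CPM in poly I:C libraries, with a log2 fold change of 0.81 ± 0.27 (adjusted p = 0.0813, edgeR). Its groups overlapped. Col27a1, a fibrillar chain of developing cartilage, was 12.8, 6.39, 8.97 and 11.9 CPM in control and 21.6, 25.4, 37.1 and 13.5 CPM in poly I:C libraries and rose by 1.31 ± 0.28 (adjusted p = 0.0191, edgeR). Outside the fibrillar class, Col23a1 rose by 2.10 ± 0.42 (adjusted p = 0.0140, edgeR) from 1.94 ± 0.61 to 8.19 ± 3.79 CPM, and Col6a3 by 1.18 ± 0.26 (adjusted p = 0.0209, edgeR). Col12a1, Col16a1, Col13a1 and Col24a1 were also higher, with adjusted p from 0.0263 to 0.0477. Col6a1, which forms filaments with Col6a3, had a log2 fold change of 0.21 ± 0.17 and did not pass.

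**Figure D2:**
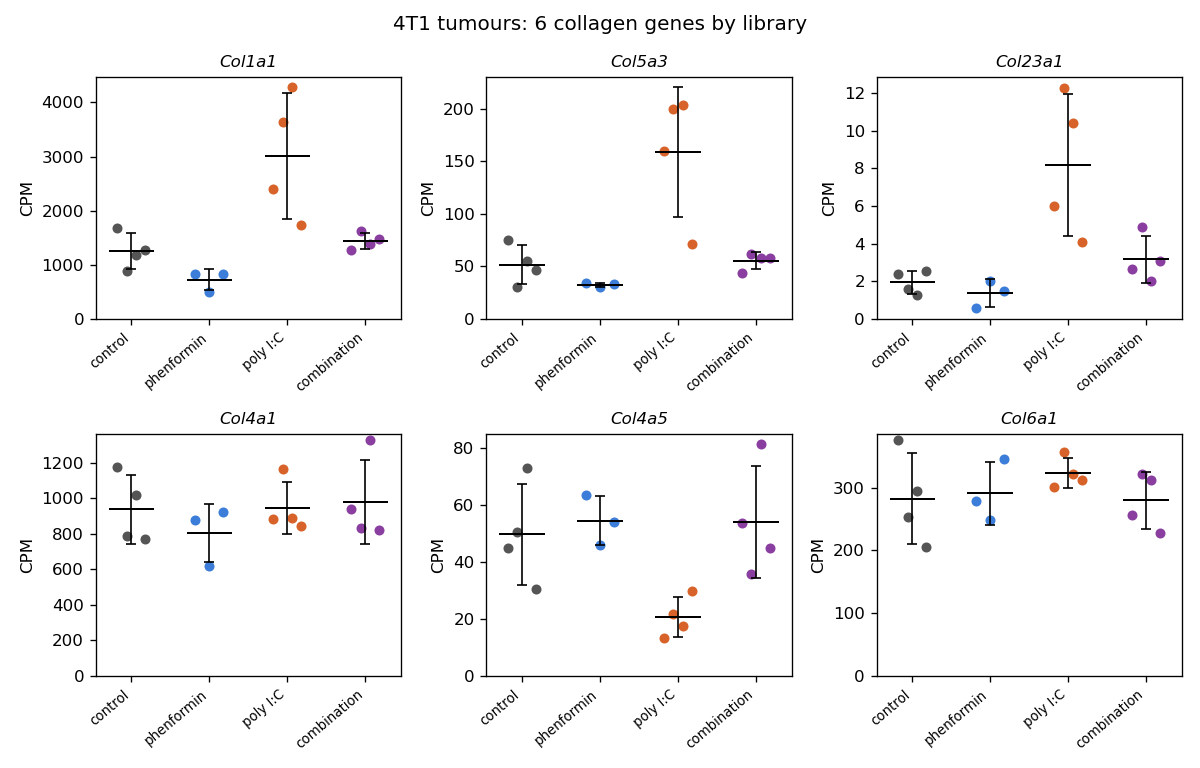
CPM of 6 collagen genes in the 15 4T1 libraries by arm, on linear axes from 0, with 1 point per library, a bar at the mean and whiskers of 1 SD. Col1a1, Col5a3 and Col23a1 are highest in poly I:C, Col4a5 is lowest there, and Col4a1 and Col6a1 overlap across the 4 arms.

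Of the basement membrane chains in 4T1 tumours, the abundant Col4a1 did not pass. It was 1179, 789, 1019 and 773 CPM in control and 883, 1168, 889 and 845 CPM in poly I:C libraries, a log2 difference of 0.031 ± 0.190. Col4a5, a chain of the type IV network of specialised basement membranes, was 44.9, 50.8, 73.2 and 30.5 CPM in control and 13.4, 21.8, 17.7 and 29.7 CPM in poly I:C libraries. All 4 poly I:C values lay under the lowest control, and Col4a5 fell by 1.25 on the log2 scale with an SE of 0.30 (adjusted p = 0.0292, edgeR).

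Genes that make, cut and bind collagen were counted beside the collagens in the same 4T1 comparison, in which 3.26% of all genes were higher and 3.06% lower. Of 18 tested enzymes and chaperones that modify collagen chains, 2 were higher, Plod2, a lysyl hydroxylase, by 0.94 ± 0.19 and Fkbp10 by 0.81 ± 0.18. Of 13 genes for procollagen processing and cross-linking, 5 were higher, among them the lysyl oxidases Loxl2 by 1.32 ± 0.28 and Lox by 1.72 ± 0.41. Of 9 collagen receptors, 2 were higher and 1 lower: Itga2, an integrin chain, rose by 1.66 ± 0.23 and Lair1, an inhibitory leukocyte receptor, fell by 1.18. Of 7 fibril-binding proteoglycans only Bgn, which encodes biglycan, was higher, by 0.99 ± 0.19. Among 15 laminins, nidogens and related partners of basement membrane collagen, 3 were higher, including Nid1 by 0.83 ± 0.23 and Lama3 by 1.79 ± 0.50. All of these passed the edgeR test at adjusted p values from 0.00445 to 0.0472.

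Markers of other cells moved with the arms. For poly I:C against control in 4T1, 3.26% of all genes were higher and 3.06% lower. The summed level of 10 fibroblast markers was 1043, 775, 1030 and 757 CPM in 4T1 control and 1401, 1719, 2471 and 1139 CPM in 4T1 poly I:C libraries, and 4 of the 10 were higher. The summed level of 6 macrophage markers was 1148 to 1581 CPM in control and 453 to 867 CPM in poly I:C libraries, and 3 of 6 were lower. The 6 neutrophil markers, of which 1 was higher, summed to 73.1, 159, 105 and 92.1 CPM in control and to 693, 292, 838 and 42.1 CPM in poly I:C libraries, lowest in replicate 4, which also had the lowest fibrillar sum of its group. Skeletal muscle markers summed to 17.6 to 20.6 CPM in control and to 23.4, 209, 92.9 and 25.3 CPM in poly I:C libraries. The part of each in the collagen differences was not tested. Poly I:C replicates 2 and 3 have both the highest fibrillar sums and the highest muscle sums of their group. Without the 5 libraries with Acta1 above 10 CPM, which leaves 2 poly I:C libraries, 0 collagen genes and 0 of 17540 genes passed. The log2 fold change of Col1a1 was then 0.73 ± 0.27, of Col5a3 1.17 ± 0.35, of Col3a1 0.17 ± 0.23 and of Col4a5 -1.19 ± 0.46. Without the 3 libraries with Igkc above 100 CPM, 4 collagen genes passed, Col1a1, Col5a1, Col5a2 and Col23a1, against 1.49% of all genes. Leaving out 1 library at a time gave from 4 calls without control replicate 3, against 1.84% of all genes, to 15 without poly I:C replicate 4, against 11.4%. With only the 2 groups in the fit 5 passed, against 2.42%. In the 8 fits that left out 1 library, Col1a1 was called in 6, Col1a2 in 4 and Col4a5 in 3.

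The combination against poly I:C asks what adding phenformin did to poly I:C tumours. In 4T1 tumours all 10 tested fibrillar genes had a lower estimate in the combination, and 1 of them passed. Col1a1 was 1280, 1621, 1391 and 1472 CPM in the combination, all under the lowest poly I:C library. The log2 fold change against poly I:C was -1.07 ± 0.27 and did not pass (adjusted p = 0.0658, edgeR). Only Col5a3 of the 36 collagen genes passed, against 0.246% of all genes (0.149% higher, 0.0974% lower). It was 43.5, 62.0, 57.7 and 57.8 CPM in the combination, all under the poly I:C values, and fell by 1.53 with an SE of 0.29 (adjusted p = 0.0495, edgeR).

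At an unadjusted p under 0.05, 19 of 36 collagen genes passed in that comparison, against 19.6% of all genes. All 10 fibrillar genes were among them, each negative, with a median log2 fold change of -1.07 against -0.0034 over all genes. Col4a5 went the other way, at 53.7, 35.8, 81.6 and 45.2 CPM in the combination, all above the poly I:C libraries, with a log2 fold change of 1.38 ± 0.30 that did not pass (adjusted p = 0.0542, edgeR). Col4a1 was at 0.044 ± 0.190 and Col6a1 at -0.22 ± 0.17, and Col3a1 at -0.98 ± 0.27, none of which passed. The calls varied with the setting. DESeq2 called 12, of which 11 were lower, against 5.93% of all genes. Leaving out poly I:C replicate 4 gave 13, against 8.1%, while leaving out any of the other 7 libraries gave 0. This comparison and poly I:C against control share the 4 poly I:C libraries.

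Phenformin alone and the combination against control gave no calls in 4T1 tumours, for the collagens or for any gene, against 0% of all genes. Col1a1 was 838, 496 and 825 CPM in the 3 phenformin libraries, all under the lowest control library, with a log2 fold change of -0.80 ± 0.29 (adjusted p = 0.371, edgeR). Col3a1 was 583, 755 and 751 CPM, also under every control, at -1.05 ± 0.29 (adjusted p = 0.248, edgeR). At an unadjusted p under 0.05, 5 of 36 collagen genes passed, against 10% of all genes, and all 5 were fibrillar and negative: Col1a1, Col1a2, Col3a1, Col5a2 and Col11a1. Col4a1 was at -0.22 ± 0.21 and Col6a1 at 0.039 ± 0.184. DESeq2 called 1 collagen gene there, Col3a1, against 1.01% of all genes. The summed fibroblast markers were 597 to 717 CPM in the phenformin libraries, under the control range of 757 to 1043 CPM, and their part was not tested.

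For the combination against control, the log2 fold changes in 4T1 tumours were 0.22 ± 0.26 for Col1a1, -0.17 ± 0.26 for Col3a1, 0.074 ± 0.190 for Col4a1 and -0.0027 ± 0.1704 for Col6a1, and 3 of 36 had an unadjusted p under 0.05, against 11.9% of all genes. DESeq2 called 0 there, against 2.31% of all genes. Against phenformin alone, 0 passed after adjustment, against 0% of all genes, and 14 of 36 had an unadjusted p under 0.05, against 12.5%. Col1a1 was at 1.02 ± 0.29, Col3a1 at 0.88 ± 0.29, Col4a1 at 0.30 ± 0.21 and Col6a1 at -0.042 ± 0.184. DESeq2 called 5, against 1.04% of all genes. In the interaction of the 2 agents no collagen gene passed, against 0% of all genes. There 5 of 36 had an unadjusted p under 0.05, against 9.33%, and DESeq2 called 0, against 0.208%. Col1a1 was at -0.27 ± 0.39, Col3a1 at 0.070 ± 0.390, Col4a1 at 0.26 ± 0.28 and Col6a1 at -0.25 ± 0.25.

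**Figure D3:**
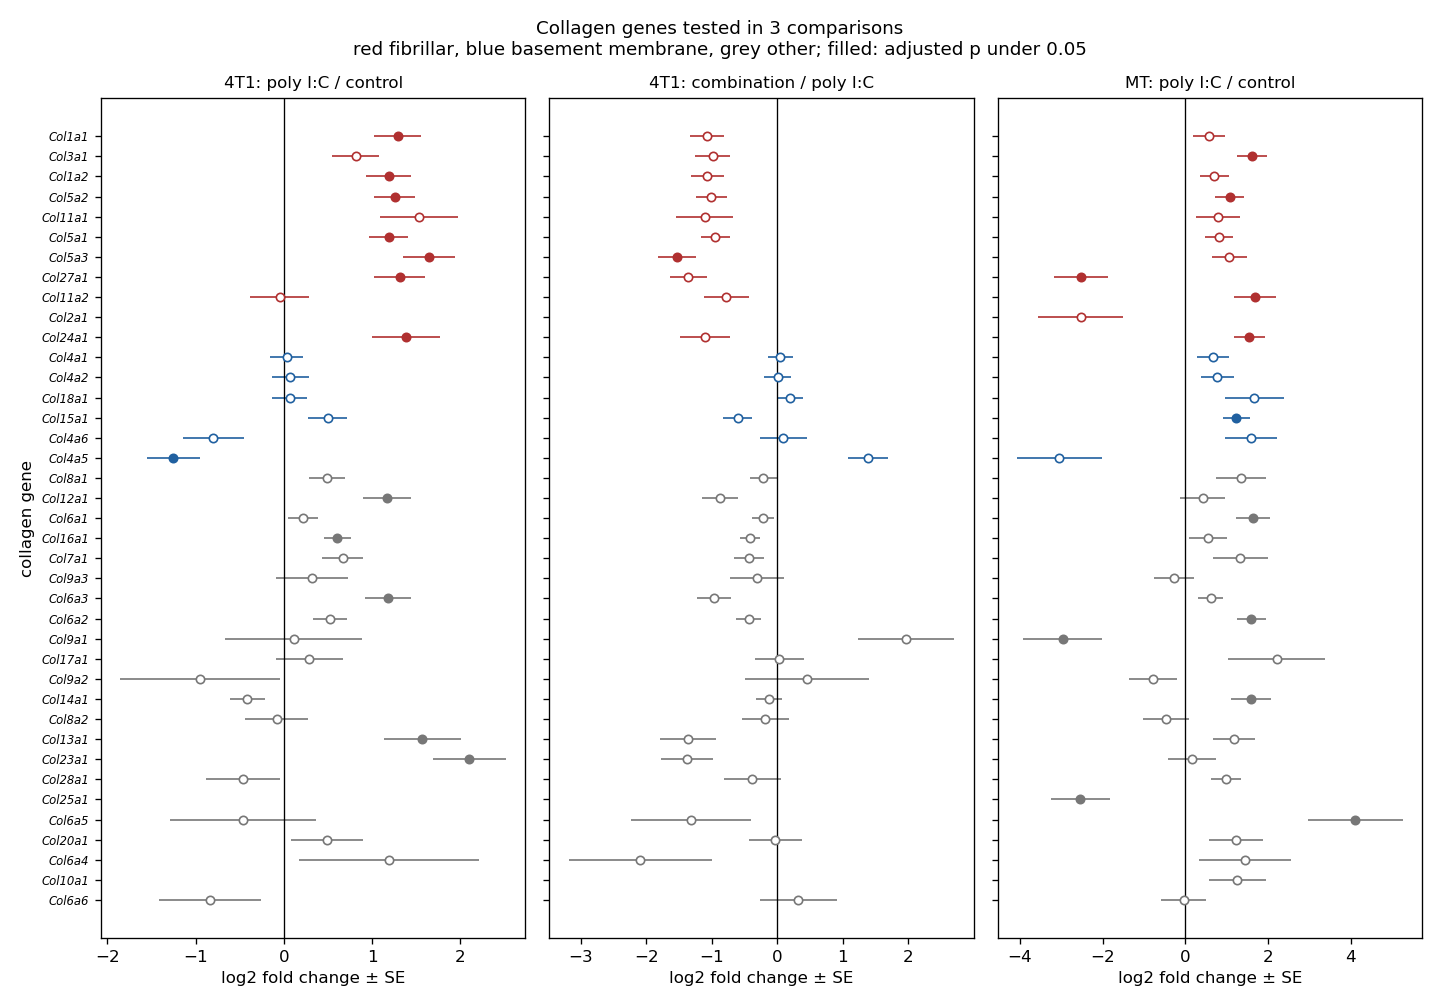
Log2 fold change ± SE of each tested collagen gene for poly I:C against control and combination against poly I:C in 4T1 and for poly I:C against control in MT tumours, with filled points at an adjusted p under 0.05. Of the 10 red fibrillar points, 9 lie to the right in the first panel, with Col11a2 at -0.048, and all 10 lie to the left in the second, whereas Col4a1, Col4a2 and Col18a1 lie near 0 in both.

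In MT tumours the same questions met libraries of unlike content. Col9a1 was 645, 463, 455 and 34.6 CPM in the MT control libraries, 611, 515, 110 and 18.7 CPM in phenformin, 60.2, 39.4, 34.9 and 69.1 CPM in poly I:C and 13.6, 54.7, 93.1 and 37.6 CPM in combination libraries. The 5 libraries with Sox10 above 100 CPM held the 5 highest values. Over the 39 tested collagen genes, 5 were higher in each of those 5 libraries than in every other MT library, against 12.8% of all 17857 genes, and 3 were lower, against 10.2%. As shares of the tested collagen genes, both counts are at or under those of all genes. The higher ones were Col9a1, Col4a5, Col27a1, Col2a1 and Col25a1, and the lower ones Col17a1, Col11a2 and Col6a5. The 5 libraries were chosen by Sox10 after the values were seen, so this is a description.

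Col27a1 was 36.1 to 75.5 CPM in the 5 libraries above 100 CPM of Sox10 and 3.0 to 10.04 CPM in the other 11. Col2a1 was 21.9 to 65.6 CPM against 0.68 to 12.7 CPM. In the opposite direction, Col17a1, the hemidesmosome collagen of basal epithelium, was 11.6, 6.21, 6.69 and 206 CPM in control, 8.27, 11.2, 204 and 106 CPM in phenformin, 316, 254, 184 and 298 CPM in poly I:C and 43.4, 246, 278 and 156 CPM in combination libraries. Control replicate 4 and phenformin replicates 3 and 4 were thus above 100 CPM in Col17a1, as were all 4 poly I:C libraries. Col3a1 overlapped between the 5 libraries above 100 CPM of Sox10 and the other 11. It was 253, 222, 182 and 194 CPM in control and 515, 382, 162 and 581 CPM in phenformin libraries.

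**Figure D4:**
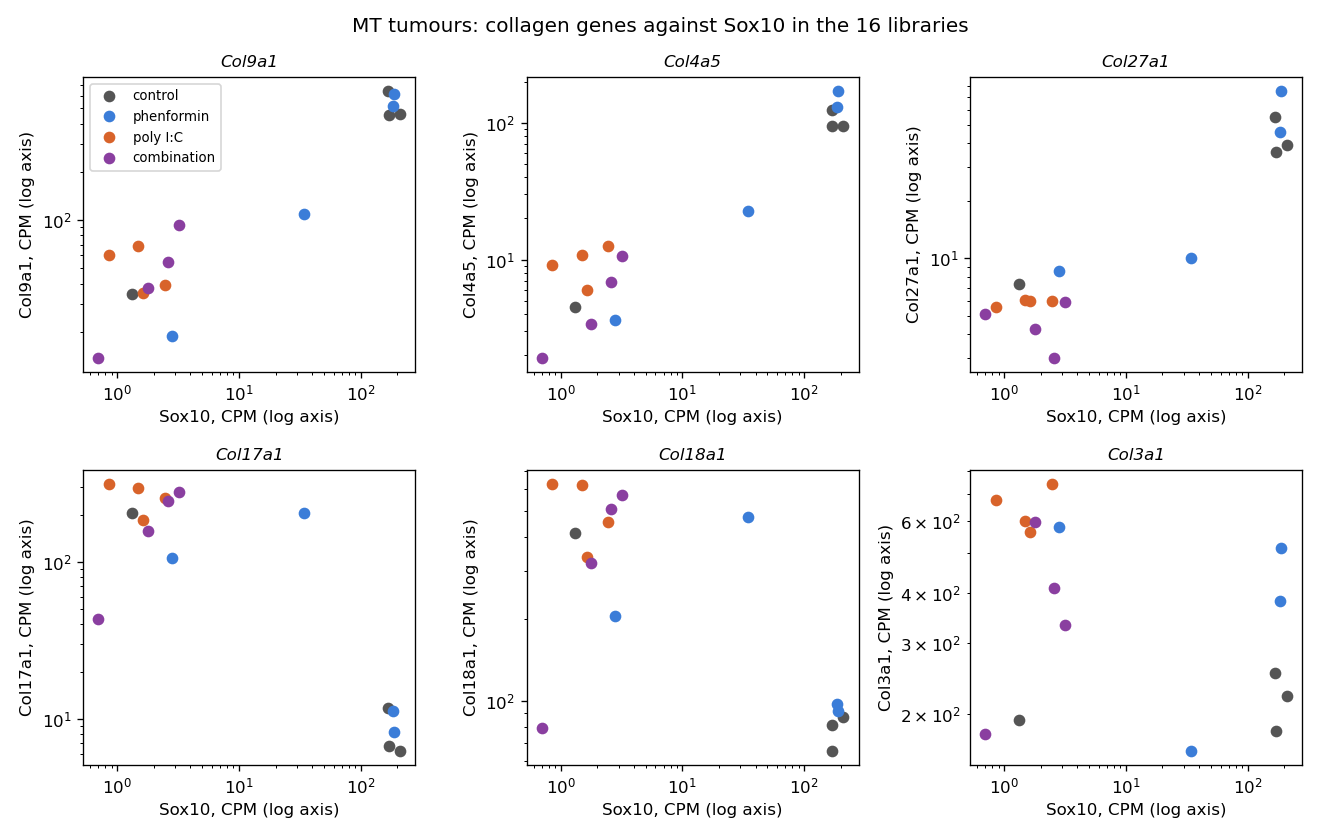
CPM of 6 collagen genes against CPM of Sox10 in the 16 MT libraries, both on log axes and coloured by arm, with Sox10 relative to library totals. Col9a1, Col4a5 and Col27a1 are high and Col17a1 is low in the 5 libraries at the right, while Col3a1 spans both sides.

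The window upstream of Col9a1 is shown as the gene with the largest such difference in CPM. It covers the 250 bases before the start at chr1:24177360-24177609, plus strand in GRCm38.p6, overlaps no exon, and holds none of the 3 motifs on either strand.
Col9a1: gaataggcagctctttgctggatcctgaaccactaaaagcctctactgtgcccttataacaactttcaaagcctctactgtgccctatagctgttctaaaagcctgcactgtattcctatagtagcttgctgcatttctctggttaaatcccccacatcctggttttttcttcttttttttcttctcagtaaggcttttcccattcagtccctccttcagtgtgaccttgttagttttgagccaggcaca

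For poly I:C against control in MT tumours, 12 of 39 collagen genes passed, 9 higher and 3 lower, against 19.6% of all genes (8.52% higher, 11.1% lower). Before adjustment, 21 of 39 had p under 0.05, against 35.6%. The median log2 fold change was 0.98 over the collagens and 0.011 over all genes. Of the fibrillar genes, 4 of 11 were higher and 1 lower, and of the basement membrane genes 1 of 6 was higher. Of the 22 others, 4 were higher and 2 lower. Col3a1 was 678, 744, 566 and 601 CPM in the poly I:C libraries, all above the highest control, and rose by 1.62 ± 0.36 (adjusted p = 0.00902, edgeR). Col6a2 rose by 1.60 ± 0.36 (adjusted p = 0.00911, edgeR), from 34.0 ± 16.9 to 102 ± 19.8 CPM. Col6a1 was 36.9, 43.0, 23.8 and 104 CPM in control and 196, 141, 114 and 186 CPM in poly I:C libraries and rose by 1.63 ± 0.41 (adjusted p = 0.0158, edgeR). These groups did not overlap.

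Col24a1 rose by 1.55 ± 0.38 and Col15a1 by 1.23 ± 0.32, with adjusted p of 0.0141 and 0.0176 (edgeR). Col6a5 rose by 4.11 ± 1.14 (adjusted p = 0.0236, edgeR), from 0, 0.32, 0.067 and 1.14 CPM to 9.77, 5.88, 2.97 and 6.58 CPM. Col27a1 fell by 2.53 with an SE of 0.66 and Col25a1 by 2.54 with an SE of 0.72 (adjusted p = 0.0179 and 0.0250, edgeR). Col9a1 also passed as lower. Each of these 3 was at its lowest control value in replicate 4, the control library with 1.32 CPM of Sox10. Col1a1, at 393, 317, 178 and 308 CPM in control and 538, 390, 362 and 469 CPM in poly I:C libraries, had a log2 fold change of 0.57 ± 0.38 and did not pass (adjusted p = 0.299, edgeR). Col4a1 was at 0.67 ± 0.39 and did not pass.

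Of the 4 MT control libraries, replicates 1, 2 and 3 are rich in Sox10, and no poly I:C library is. Content and arm thus cannot be told apart in most of these libraries. In the refits, Sox10-rich means above 10 CPM, which adds phenformin replicate 3 to the 5 libraries above 100 CPM. Without the 6 libraries above 10 CPM of Sox10, which leaves 1 control, 1 phenformin, 4 poly I:C and 4 combination libraries, 0 collagen genes and 0 of 18955 genes passed, with the lone control assumed to vary like the other groups. With a term for the Krt5 to Sox10 ratio (log2) in the model, 0 collagen genes passed, against 9.04% of all genes. In the fit without those libraries, Col3a1 was at 1.77 ± 0.58 and Col6a5 at 2.48 ± 0.66, while Col27a1 was at -0.28 ± 0.33, Col25a1 at 0.044 ± 0.818 and Col9a1 at 0.58 ± 0.84. Leaving out control replicate 4 gave 19 calls, against 34.5% of all genes, and the lowest count, 4, came without control replicate 1, against 11.3%. Col3a1, Col6a2 and Col24a1 were called in all 8 of those fits. Col24a1 was low, at 0.20 to 0.40 CPM in control and 0.58 to 1.08 CPM in poly I:C libraries. Its call was not kept with the 1 CPM filter or with only the 2 groups in the fit.

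In the same comparison 6 of 6 macrophage markers, 6 of 6 endothelial markers and 5 of 10 fibroblast markers were higher in MT poly I:C tumours. The summed fibroblast markers were 256, 267, 210 and 418 CPM in control and 685, 668, 617 and 650 CPM in poly I:C libraries. Their part in the collagen differences was not tested. Over all genes 8.52% were higher and 11.1% lower in this comparison. Of 13 processing and cross-linking genes 6 were higher, including Tll1, a procollagen protease, by 2.38 ± 0.45 and Sparc, a collagen-binding glycoprotein, by 1.12 ± 0.28. Of 9 receptors 4 were higher, including Itga2 by 2.59 ± 0.47 and Lair1 by 1.16 ± 0.23. Of 18 modifying enzymes and chaperones 3 were higher, among them Colgalt2 by 1.97 ± 0.38 and Colgalt1 by 0.56 ± 0.11. Of 14 basement membrane partners 4 were higher, including the nidogens Nid2 by 1.83 ± 0.34 and Nid1 by 1.51 ± 0.30. Of 7 proteoglycans 3 were higher, including Ogn by 2.88 ± 0.68 and Lum by 1.80 ± 0.44. Of 14 genes of TGF-beta signalling, a known inducer of collagen, 4 were higher and 2 lower, and Tgfbr1 rose by 1.19 ± 0.14 and Tgfbi by 1.66 ± 0.21.

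The combination against control in MT tumours gave 2 calls of 39, both lower, against 6.14% of all genes (2.81% higher, 3.33% lower). Before adjustment, 12 of 39 had p under 0.05, against 29.8%. Col27a1 was 5.12, 3.0, 5.88 and 4.24 CPM in combination and 54.8, 39.4, 36.1 and 7.32 CPM in control libraries, and fell by 2.91 with an SE of 0.67 (adjusted p = 0.0324, edgeR). Col4a5 fell by 3.83 with an SE of 1.06 (adjusted p = 0.0487, edgeR). Col1a1 was at 0.040 ± 0.383, Col3a1 at 0.84 ± 0.36, Col4a1 at 0.022 ± 0.389 and Col6a1 at 0.97 ± 0.41, and none of these passed. Both genes were called in only 1 of the 8 fits that left out 1 library, the one without control replicate 4, in which 15 passed, against 29.7% of all genes. Leaving out the 6 Sox10-rich libraries gave 0, with Col4a5 then at 0.36 ± 0.82.

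No collagen gene passed for phenformin against control, for the combination against poly I:C or for the interaction in MT tumours, against 0% of all genes in each. DESeq2 called 0 in each, against 0.119%, 0.0224% and 0.191%. The combination against phenformin gave 0 of 39, against 0.106% of all genes (0.0784% higher, 0.028% lower), and 4 at an unadjusted p under 0.05, against 13.2%. For it DESeq2 called 2, against 1.5%. For phenformin 3 of 39 had an unadjusted p under 0.05, against 6.07% of all genes, and Col3a1 was at 0.96 ± 0.36, Col1a1 at 0.49 ± 0.38, Col4a1 at 0.42 ± 0.39 and Col6a1 at 0.53 ± 0.40. For the combination against poly I:C it was 7 of 39, against 6.03%. There 35 of the 39 log2 fold changes were negative, with a median of -0.54 against 0.0090 over all genes, and Col3a1 was at -0.78 ± 0.36, Col1a1 at -0.53 ± 0.38, Col4a1 at -0.65 ± 0.39 and Col6a1 at -0.66 ± 0.40. Combination replicate 1, the library with the highest Igkc, had the lowest Col1a1, at 94.6 CPM against 448, 319 and 366 CPM in the other 3, and without it Col1a1 was at -0.23 and Col4a1 at -0.34. In the interaction 10 of 39 had an unadjusted p under 0.05, against 9.91%, and Col3a1 was at -1.74 ± 0.51, Col1a1 at -1.02 ± 0.54, Col4a1 at -1.07 ± 0.55 and Col6a1 at -1.20 ± 0.57. Against phenformin alone, the combination had Col1a1 at -0.45 ± 0.38, Col3a1 at -0.12 ± 0.35, Col4a1 at -0.40 ± 0.39 and Col6a1 at 0.43 ± 0.40.

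Type IV collagen genes lie in head-to-head pairs, with starts 21 bases apart on chromosome 8 for Col4a1 and Col4a2 and 1309 bases apart on the X chromosome for Col4a5 and Col4a6. The first pair kept a near-constant proportion. Per kilobase of exon, the log2 ratio of Col4a1 to Col4a2 had group means from 0.70 to 0.84 in all 8 groups. Over the second pair the log2 ratio of Col4a5 to Col4a6 had group means from 3.76 ± 0.38 to 4.94 ± 0.51 in 4T1 tumours and was -4.43 ± 0.32 in MT poly I:C and -4.71 ± 0.40 in MT combination tumours. In MT control it ran from -5.11 to 1.52 over the 4 libraries, and in MT phenformin from -4.42 to 1.79.

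Col4a5 was 126, 96.0, 95.6 and 4.47 CPM in MT control, 174, 131, 22.6 and 3.57 CPM in phenformin, 9.14, 12.5, 5.99 and 10.8 CPM in poly I:C and 1.89, 6.80, 10.6 and 3.37 CPM in combination libraries. Col4a6 was 54.1, 52.2, 39.6 and 187 CPM in control, 59.4, 56.9, 219 and 93.1 CPM in phenformin, 292, 236, 160 and 298 CPM in poly I:C and 43.1, 257, 306 and 140 CPM in combination libraries. The control library with the least Col4a5 had the most Col4a6. In 4T1 libraries Col4a6 was 0.83 to 5.52 CPM throughout, and Col4a5 was 13.4 to 81.6 CPM.

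**Figure D5:**
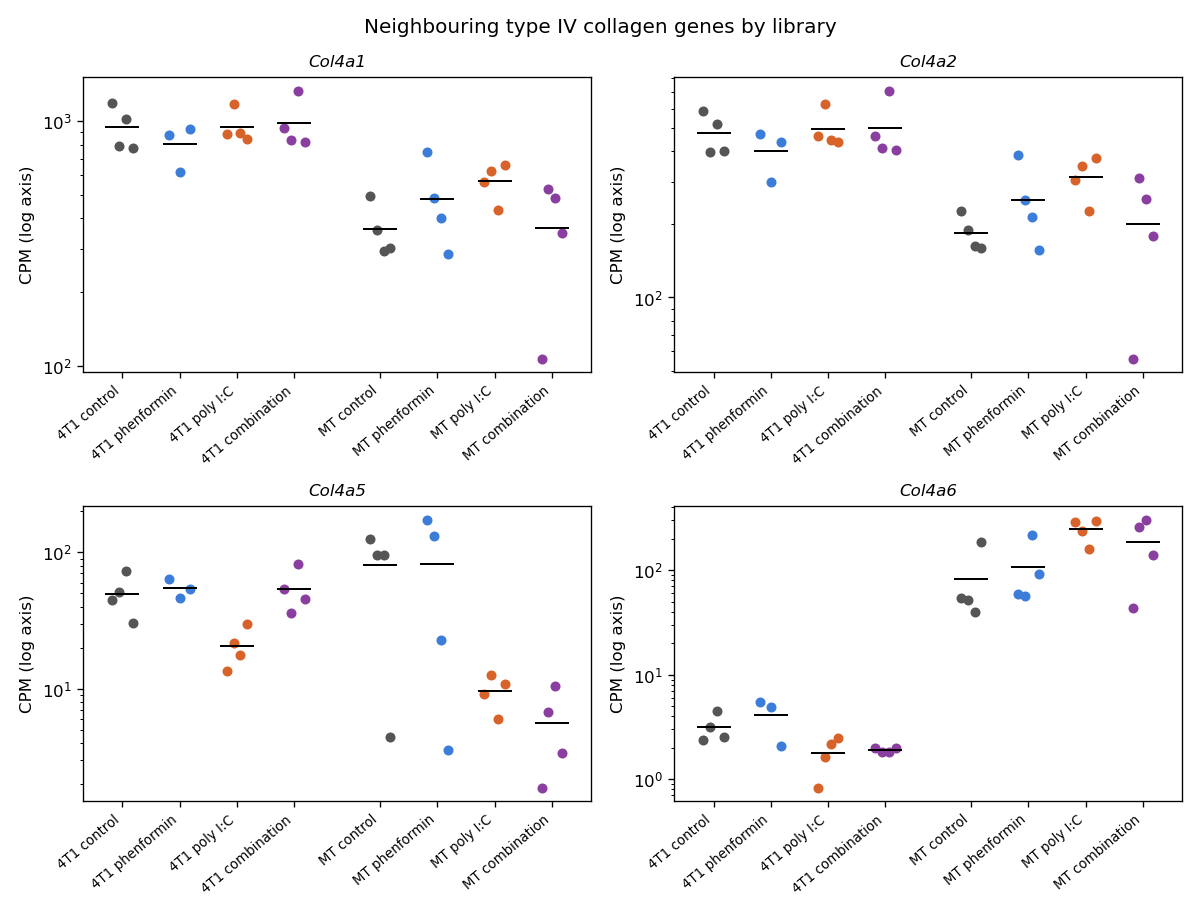
CPM of Col4a1, Col4a2, Col4a5 and Col4a6 in the 31 libraries by model and arm, on log axes, with 1 point per library and a bar at the mean. Col4a1 and Col4a2 follow each other across groups, while Col4a5 and Col4a6 split the MT control and phenformin libraries. Col4a5 lies above Col4a6 in every 4T1 library and in the 5 MT libraries above 100 CPM of Sox10, and below it in the other 11.

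The upstream windows of this pair are shown because the log2 ratio of the neighbours changed sign between libraries. That of Col4a5 covers 216 bases at chrX:141475169-141475384, plus strand, and stops at its first annotated exon. That of Col4a6 covers 250 bases at chrX:141474077-141474326, minus strand. Both are from RefSeq on GRCm38.p6, 5′ to 3′ on the strand of the gene, with the same motifs in capitals.
Col4a5: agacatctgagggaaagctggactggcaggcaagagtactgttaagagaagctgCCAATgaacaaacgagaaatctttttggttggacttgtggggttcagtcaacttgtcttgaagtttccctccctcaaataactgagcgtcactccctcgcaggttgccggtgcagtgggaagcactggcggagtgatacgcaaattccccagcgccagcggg
Col4a6: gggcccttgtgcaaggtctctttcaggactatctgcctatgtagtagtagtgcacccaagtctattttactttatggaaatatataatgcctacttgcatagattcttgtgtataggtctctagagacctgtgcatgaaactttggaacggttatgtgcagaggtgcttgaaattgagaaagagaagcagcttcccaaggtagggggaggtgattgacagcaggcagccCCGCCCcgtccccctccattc
The Col4a5 window holds 1 CCAAT box and the Col4a6 window 1 GC box on the opposite strand.

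The control arms of the models differed widely. Of 39 collagen genes, 28 passed in 4T1 control against MT control, 18 higher in 4T1 and 10 higher in MT, against 51.9% of all 18956 genes (26.7% higher in 4T1, 25.2% lower), and 30 had an unadjusted p under 0.05, against 57.2%. Of the 11 fibrillar genes, 7 were higher in 4T1 and 3 higher in MT. Of 6 basement membrane genes, 3 were higher in 4T1 and 1 in MT, and of the 22 others 8 and 6. Col2a1 and Col25a1 are among those higher in MT. Both failed the filter in 4T1, with control means of 0.16 and 0.14 CPM there. They entered the joint fit through their MT levels, so the counts higher in MT are partly set by the filter. Leaving out 1 library gave 28 to 31 collagen genes, against 46.8% to 53% of all genes. The refit without the Sox10-rich libraries leaves 1 MT control library, so it cannot decide whether the calls hold across MT control tumours.

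The type IX chains were among the genes that differed most. Col9a3 was 407, 351, 274 and 183 CPM in MT control and 1.18, 1.58, 1.27 and 1.12 CPM in 4T1 control libraries, a log2 difference (4T1 minus MT) of -7.87 ± 0.58 (adjusted p = 8.83e-11, edgeR). Col9a2 was 112, 92.0, 53.3 and 30.1 CPM against 0.32, 0.38, 0.42 and 0.62 CPM, at -7.35 ± 0.79 (adjusted p = 3.42e-08, edgeR). Col9a1 was at -9.58 ± 1.16 (adjusted p = 2.16e-07, edgeR), with 0.75, 0.11, 0.80 and 0.37 CPM in 4T1 control libraries. Col11a1, a fibrillar chain that cartilage fibrils contain with types II and IX, was 320, 202, 211 and 264 CPM in MT and 6.02, 6.44, 2.71 and 1.37 CPM in 4T1 control libraries, at -5.91 ± 0.61 (adjusted p = 1.98e-08, edgeR). No MT value of these 4 genes overlapped a 4T1 value. Of 8 cartilage markers 5 entered the joint fit and were higher in MT, against 25.2% of all genes. Among them, Acan was at 29.3 and Hapln1 at 17.5 CPM in MT control, against 0.027 and 0.013 CPM in 4T1 control tumours. Markers this low in 4T1 pass the filter only through MT, so this count is partly set by the filter. All 8 markers summed to 447, 339, 230 and 1430 CPM in the MT control libraries, and to 47.8 to 76.5 CPM in 4T1 control. The highest sum was in MT control replicate 4, the MT control library with the least Col9a1, Col9a2 and Col9a3, though not the least Col11a1. The part of cartilage-like cells was not tested.

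Col4a6 was also higher in MT, at -4.73 ± 0.60 (adjusted p = 4.05e-07, edgeR). Among genes higher in 4T1, Col5a1 was 32.9, 35.2, 19.1 and 22.5 CPM in MT control, under every 4T1 control value, a difference of 2.92 ± 0.32 (adjusted p = 4.31e-08, edgeR). Col3a1 was 2.76 ± 0.35 higher in 4T1 (adjusted p = 4.31e-07, edgeR) and Col6a1 2.45 ± 0.34 higher (adjusted p = 1.76e-06, edgeR). The summed fibroblast markers were 757 to 1043 CPM in 4T1 and 210 to 418 CPM in MT control libraries. Of the 10, 7 were higher in 4T1, against 26.7% of all genes. Their part was not tested.

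The response to poly I:C itself differed between the models for 6 of 39 collagen genes, against 11.1% of all genes (5.7% with a higher value in 4T1, 5.42% with a lower one). Before adjustment, 11 of 39 had p under 0.05, against 26.9%. In log2 units, 4T1 minus MT, Col27a1 was at 3.82 ± 0.74 (adjusted p = 0.0019, edgeR) and Col25a1 at 4.15 ± 0.99 (adjusted p = 0.009, edgeR). Col25a1 failed the filter in 4T1, where its group means were 0.14 CPM in control and 0.43 CPM in poly I:C, and it entered the joint fit through its MT levels. Col14a1 was at -1.99 ± 0.53, Col6a5 at -4.57 ± 1.45, Col6a1 at -1.43 ± 0.46 and Col4a6 at -2.39 ± 0.78, with adjusted p of 0.0174, 0.0414, 0.0452 and 0.0469 (edgeR). For the type I and type III chains the difference did not pass, with Col1a1 at 0.71 ± 0.49 and Col3a1 at -0.82 ± 0.46. Without the Acta1-rich libraries 1 collagen gene passed, against 4.85% of all genes. The fit without the Sox10-rich libraries leaves 1 MT control library, so it cannot decide whether these calls hold. Of the 36 genes tested in both models, 13 were called for poly I:C in 4T1 and 11 in MT. Called in both were 3, which is 23.1% of the first and 27.3% of the second. The matching overlap over all genes was not counted, so these shares cannot be read as high or low. Of the 3 called in both, Col5a2 and Col24a1 rose in both models, and Col27a1 rose in 4T1 and fell in MT. The calls of Col5a2 in MT and of Col24a1 in 4T1 each held in only 1 of 8 fits that left out 1 library, and both were lost with a replicate block.

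For the combination against poly I:C, no difference between models passed, against 0% of all genes, and 0 of 39 had an unadjusted p under 0.05, against 8.36%. DESeq2 also called 0, against 0.206%. Col1a1 was at -0.55 ± 0.49, Col3a1 at -0.20 ± 0.46, Col4a1 at 0.69 ± 0.45 and Col6a1 at 0.45 ± 0.46 on the log2 scale, 4T1 minus MT.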

How the data were processed

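Bulk poly(A) RNA was measured in 31 libraries. The deposited values are raw counts per gene, as whole numbers. The submitters' processing notes name Trimmomatic 0.32.48, STAR 2.3.0, featureCounts 1.4.4 and mm10 (GRCm38), and the labels name strand-specific libraries. The annotation and strand setting of the counting are not given in the sources used here.

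Counts were tested with edgeR 4.0.16 in R 4.3.3: filterByExpr (minimum count 10, minimum total 15), TMM factors, quasi-likelihood F-tests in 1 fit per model and 1 joint fit, and Benjamini-Hochberg adjustment over all genes tested (17445, 17857 and 18956), with calls at an adjusted p under 0.05. SEs are absolute log2 fold changes divided by the root of F. The interaction contrasts combination minus phenformin with poly I:C minus control. CPM use joint TMM factors, except Sox10, Krt5, Acta1 and Igkc in single libraries, which use library totals. Exonic lengths come from GENCODE M21. The fitting script was tested on simulated data.

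Alternatives were DESeq2 1.42.0, its size factors, other filters, replicate blocks, only the groups compared, and leaving out libraries. Named are called members, up to 8 per comparison by p (Col1a1, Col3a1, Col4a1 and Col6a1 where fewer than 4 passed), members above 10 CPM with their levels, and 12 by library. Col4a5, Col27a1, Col6a1, Col6a5 and Col2a1 by library were chosen after their values were seen. The members and lists were chosen with earlier results of these data known. The TGF-beta list is not reported here for 4T1 tumours.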

Additional observations from a re-analysis of the deposited data

Results flagged for a closer look

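Each of 15 items, single genes or class sums, was examined in every group of 4 libraries, which gave 105 cases. In 5 of these cases, 1 library lay far from the other 3 of its group. The measure was the gap to its nearest neighbour as a share of the group's range. Chance alone flags about 1 case in 20, and the cases share libraries, so they are not independent. For Col1a2, MT phenformin replicate 3 was lowest, with a gap of 0.957 of the range. For Col4a1, 4T1 poly I:C replicate 2 was highest, with 0.842. For Col9a1, MT control replicate 4 was lowest, with 0.880; it is the control library with 1.32 CPM of Sox10. The summed fibrillar level was highest in 4T1 combination replicate 2, with 0.897, and lowest in MT combination replicate 1, with 0.888, the library with 9108 CPM of Igkc.

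The response of 6 genes to poly I:C differed between the models by the edgeR test of the difference itself, in log2 units of 4T1 minus MT: Col25a1 by 4.15, Col27a1 by 3.82, Col6a5 by -4.57, Col4a6 by -2.39, Col6a1 by -1.43 and Col14a1 by -1.99. Col25a1 failed the filter on low counts in 4T1 and entered the joint fit through its MT levels. Of the 6, Col25a1, Col27a1 and Col14a1 were called in all 16 fits that left out 1 library, and none was called without the libraries above 10 CPM of Sox10.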

How the results depend on the processing

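The count of collagen genes called between the control arms (28) stayed between 28 and 31 when 1 library was left out, against 46.8% to 53% of all genes. Of the 28, 27 were kept with the replicate block, which lost Col17a1, against 37.1% of all genes called. The refit without the Sox10-rich libraries leaves 1 MT control library and cannot decide whether these calls hold. Other counts moved. For 4T1 poly I:C against control (13), only the 2 groups gave 5, against 2.42% of all genes. Leaving out the Acta1-rich libraries gave 0, against 0%, and leaving out the Igkc-rich libraries 4, against 1.49%. Leaving out 1 library gave from 4, against 1.84%, to 15, against 11.4%. For 4T1 combination against poly I:C (1), DESeq2 gave 12, against 5.93% of all genes, its size factors 2, against 0.579%, and a 1 CPM filter 4, against 1.24%. The replicate block gave 0, against 0.0172%, and only the 2 groups 0, against 0%. Leaving out Acta1-rich or Igkc-rich libraries gave 0, against 0% and 0.00574%. Leaving out 1 library gave 0 to 13, the highest without poly I:C replicate 4, against 8.1%. For MT poly I:C against control (12), only the 2 groups gave 20, leaving out Sox10-rich libraries or the Krt5 to Sox10 covariate 0, and leaving out 1 library 4 to 19. For MT combination against control (2), DESeq2 gave 7, its size factors, no filter and the replicate block 1 each, only the 2 groups, no Sox10-rich libraries and the covariate 0 each, and leaving out 1 library 0 to 15. For the difference in poly I:C response (6), no filter gave 3, no Acta1-rich libraries 1, no Sox10-rich libraries 0, and leaving out 1 library 3 to 12, the highest without MT control replicate 4. Where 0 passed, DESeq2 gave 1 for 4T1 phenformin, against 1.01% of all genes, and 5 for 4T1 combination against phenformin, against 1.04%. For MT combination against phenformin it gave 2, against 1.5%. Leaving out phenformin replicate 4 there gave 1, against 0.477%, and the other libraries 0. Over all genes, MT poly I:C gave 24.8% with only the 2 groups. It gave 11.3% and 34.5% where leaving out 1 library gave 4 and 19. MT combination against control gave 16.7% with DESeq2, 5.49% with its size factors and 1.25% with no filter. It gave 3.5% with the replicate block, 0.305% with only the 2 groups and 29.7% at the highest count, 15. The difference in response gave 5.03% with no filter, 4.85% without Acta1-rich libraries and 23.5% without MT control replicate 4. The cause of these shifts was not tested.

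Single log2 fold changes changed sign in 20 of 588 such refits, mostly near 0. Without Acta1-rich libraries in 4T1, Col6a1 was at -0.11 for phenformin, 0.16 for combination against control, 0.021 against poly I:C, 0.27 against phenformin and 0.13 in the interaction, Col1a1 was at 0.44 in the interaction, and for combination against poly I:C, 4T1 minus MT, Col1a1 was at 0.063 and Col3a1 at 0.49. Without Igkc-rich libraries, Col4a1 was at -0.026 for combination against control and -0.0056 against poly I:C. Without Sox10-rich libraries in MT, Col25a1 was at 0.044 for poly I:C, Col4a1 at -0.033 and Col6a1 at -0.032 for phenformin, Col4a5 at 0.36 and Col6a1 at -0.017 for combination against control, and Col4a1 at 0.33 for combination against phenformin. With the covariate, Col25a1 was at 0.024, Col4a5 at 0.21 and Col6a1, combination against phenformin, at -0.27.

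Leaving out 1 library also turned the sign of small changes. For 4T1 combination against control, Col3a1 ran from -0.27 to 0.00089, Col4a1 from -0.11 to 0.19 and Col6a1 from -0.14 to 0.16. In 4T1, Col4a1 for combination against poly I:C ran from -0.14 to 0.15, Col6a1 against phenformin from -0.16 to 0.097, Col6a1 for phenformin against control from -0.11 to 0.20, and Col3a1 in the interaction from -0.12 to 0.37. In MT, Col1a1 for combination against control ran from -0.20 to 0.34, Col4a1 from -0.21 to 0.33, and Col3a1 against phenformin from -0.42 to 0.12. Col3a1 for combination against poly I:C, 4T1 minus MT, ran from -0.43 to 0.10. None of these results was called.

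Replicate numbers did not pair the libraries: same-numbered deviations correlated from -0.52 to 0.23 in 4T1 and from -0.81 to 0.77 in MT, and 2 of 15 and 5 of 16 libraries correlated best with their own number. With the replicate block, Col6a1 for 4T1 combination against control was at 0.0042. With it, 11 collagen genes passed for 4T1 poly I:C, against 4.76% of all genes, and 9 for MT poly I:C, against 18.4%. Depth limits the members under 1 CPM.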
